A study of Mus musculus with 9 samples.

Results

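The genes described here encode the machinery of synaptic vesicle release. They were chosen by name as 51 mouse symbols, with earlier results of these data known. All 51 were found among the 55536 Ensembl genes counted in lumbar dorsal root ganglia. Of the 51, 50 passed the filter on low counts. The exception was Cplx3. Messenger RNA was sequenced from the ganglia of adult C57Bl6 mice in 9 libraries. The icKO group held 5 libraries whose labels name an inducible conditional knock-out for Prdm12, a zinc finger regulator known for its role in pain-sensing neurons, and the control group held 4 libraries with a wild type genotype. The series text places the comparison 1 month after tamoxifen, the drug that triggers such a deletion. Not given in the sources used here were the Cre driver, the deleted exon and whether the controls also received tamoxifen. The labels leave unsaid if each library is a different animal or pool, and the p-values then measure only how far these libraries spread, which may be technical.

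Neurons release transmitter when a calcium signal makes a vesicle fuse with the plasma membrane. Fusion is driven by SNARE proteins: a vesicle SNARE (synaptobrevin, the Vamp genes) zips up with syntaxin and SNAP-25 on the target membrane. Synaptotagmins sense the calcium, complexins hold or promote the partly zipped complex, and Munc13 (Unc13 genes), RIM and CAPS proteins make vesicles ready at the release site. Rab3 GTPases and synapsins hold vesicles near it, and NSF with its SNAP adaptors pulls spent SNARE complexes apart. Sensory neurons use this machinery at their central terminals in the spinal cord, and related proteins for the peptides of dense-core vesicles, while their cell bodies in the ganglion hold most of the mRNA. Ganglion mRNA also comes from glia and other cells.

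Library totals were 19607740 to 29481589 counts. A floor of 3 counts per library, used for a gene with no count, equalled 0.102 to 0.153 CPM for counting error alone. CPM are counts scaled to a common library total with TMM factors. Prdm12 itself was at 22.3 to 26.2 CPM in icKO and 116 to 163 CPM in control. Sensory neuron genes marked the tissue as labelled: Prph was at 1572 to 1924 CPM in icKO and 1665 to 1883 CPM in control, and Isl1 at 133 to 159.5 CPM in icKO and 119 to 141 CPM in control. Some libraries stood apart. The 9 spinal cord markers summed to 16.6 to 20.9 CPM in icKO and to 17.8, 11.3, 17.7 and 58.7 CPM in control replicates 1 to 4, with 29.7 CPM of the astrocyte gene Gfap in control 4, although the neuronal spinal cord markers Gad2, Slc32a1 and Slc6a5 stayed at 0.618 CPM or less in every library. Skeletal muscle markers were highest in icKO 1, at 31.5 CPM, and control 2, at 51.2 CPM, against 4.11 to 14.2 CPM elsewhere. Summed Y-linked genes were scaled to the library total alone, without TMM factors. They were at 166 and 146 CPM in icKO 1 and 2, against 156 and 98.5 CPM in control 1 and 3. In the other 5 libraries they were at 3.64 CPM or less, so that both levels occurred in both groups. The split was not clean: icKO 4 lay above the other low libraries and control 3 below the other high ones, with the cut set at 50 CPM. The members were lowest in icKO 4 most often among the icKO libraries, for 28 of 50 genes, against 27.1% of all genes tested. Within a bulk sample, fewer cells of a type and less RNA per cell cannot be told apart, which holds for every difference below.

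The 51 genes ranged from near absence to some of the more abundant mRNAs of the ganglion. Levels between genes were compared per kb of annotated exon. The complexin gene Cplx1 stood highest, at 333 CPM per kb in icKO and 381 CPM per kb in control, followed by Syt11 at 286 CPM per kb in icKO and 298 CPM per kb in control, and by Snap25 at 248 CPM per kb in icKO and 259 CPM per kb in control. The control ranges of Syt11, at 274 to 333 CPM per kb, and Snap25, at 236 to 283 CPM per kb, overlapped. Rab3a was the fourth at 140.0 CPM per kb in icKO and 150.1 CPM per kb in control. At the other end, Cplx3, a complexin known from ribbon synapses of the retina, had 0 to 4 counts per library and was not tested. Syt13, Syt17 and Syn3 were tested at 2.03, 2.32 and 7.49 CPM on average over the 9 libraries. In CPM, 29 of the 51 genes averaged 100 CPM or more and 46 averaged 10 CPM or more.

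**Figure D1:**
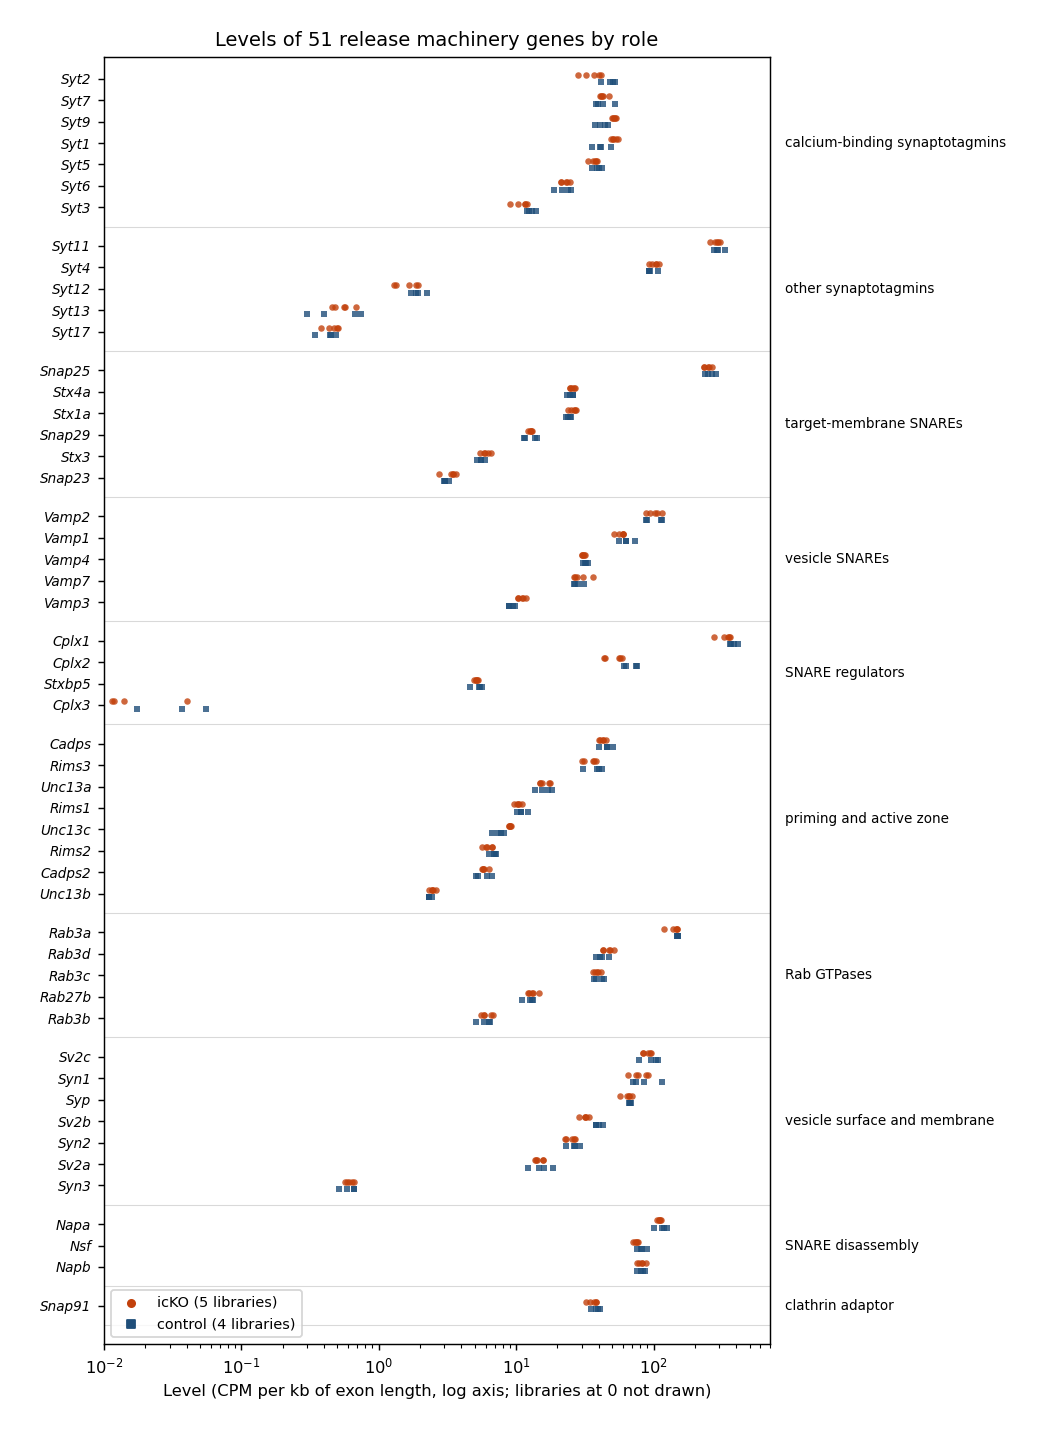
Level of each of the 51 genes in CPM per kb of exon length, on a log axis, with 1 point per library (icKO circles above control squares) and genes grouped by role. Cplx1, Syt11 and Snap25 were the 3 highest genes, and Cplx3 lay below 0.1 CPM per kb in every library.

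Few of these genes passed the test between icKO and control ganglia. Of the 50 tested, 0 were higher and 1, Sv2b, was lower in icKO at an adjusted p under 0.05 (edgeR quasi-likelihood test, Benjamini-Hochberg adjustment), where 0.475% of all 17258 genes tested were higher and 0.377% lower. With unadjusted p-values under 0.05, 4 genes (8%) were higher and 7 (14%) lower, where 4.85% of all genes tested were higher and 6.26% lower. The libraries of the groups did not overlap for 4 genes that were higher in icKO (Syt1, Syt9, Vamp3 and Unc13c) and 4 that were lower (Syt3, Cplx1, Cplx2 and Sv2b), or 8% each, where 2.16% of all genes tested were higher and 2.34% lower without overlap. DESeq2, a second count test, gave an adjusted p under 0.05 to 4 higher genes (Syt1, Syt9, Vamp3 and Unc13c) and 3 lower ones (Syt2, Cplx2 and Sv2b), where it called 1.23% of all genes higher and 1.45% lower. The median log2 fold change of the 50 genes was -0.049, beside -0.00076 over all genes tested. It was 0.0067 without control 4, the library with the highest spinal cord markers and the lowest count total, and the reason was not tested. Estimates were below 0 for 31 genes and above 0 for 19. The members were chosen with earlier results of these data known, so none of these shares tests the list. Members and all genes tested were also not matched for expression level or variation.

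The differences were small, and their intervals were narrow for most of the genes. Log2 fold changes ran from -0.43 for Syt2 to 0.31 for Syt1. The 95% interval of the log2 fold change lay within a 1.5-fold change in either direction for 47 of the 50 genes (94%), against 75.3% of all genes tested. The 3 whose interval reached further were Syt2, Cplx2 and the low-count gene Syt13. The median coefficient of variation of the 50 genes was 6.50% among icKO libraries and 8.57% among control libraries, beside 9.02% among icKO and 10.9% among control libraries over all genes tested. For the intervals and for the variation, the genes compared were not matched for expression level. Whether level alone gave the narrower intervals and the lower variation of the 50 genes was not tested.

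**Figure D2:**
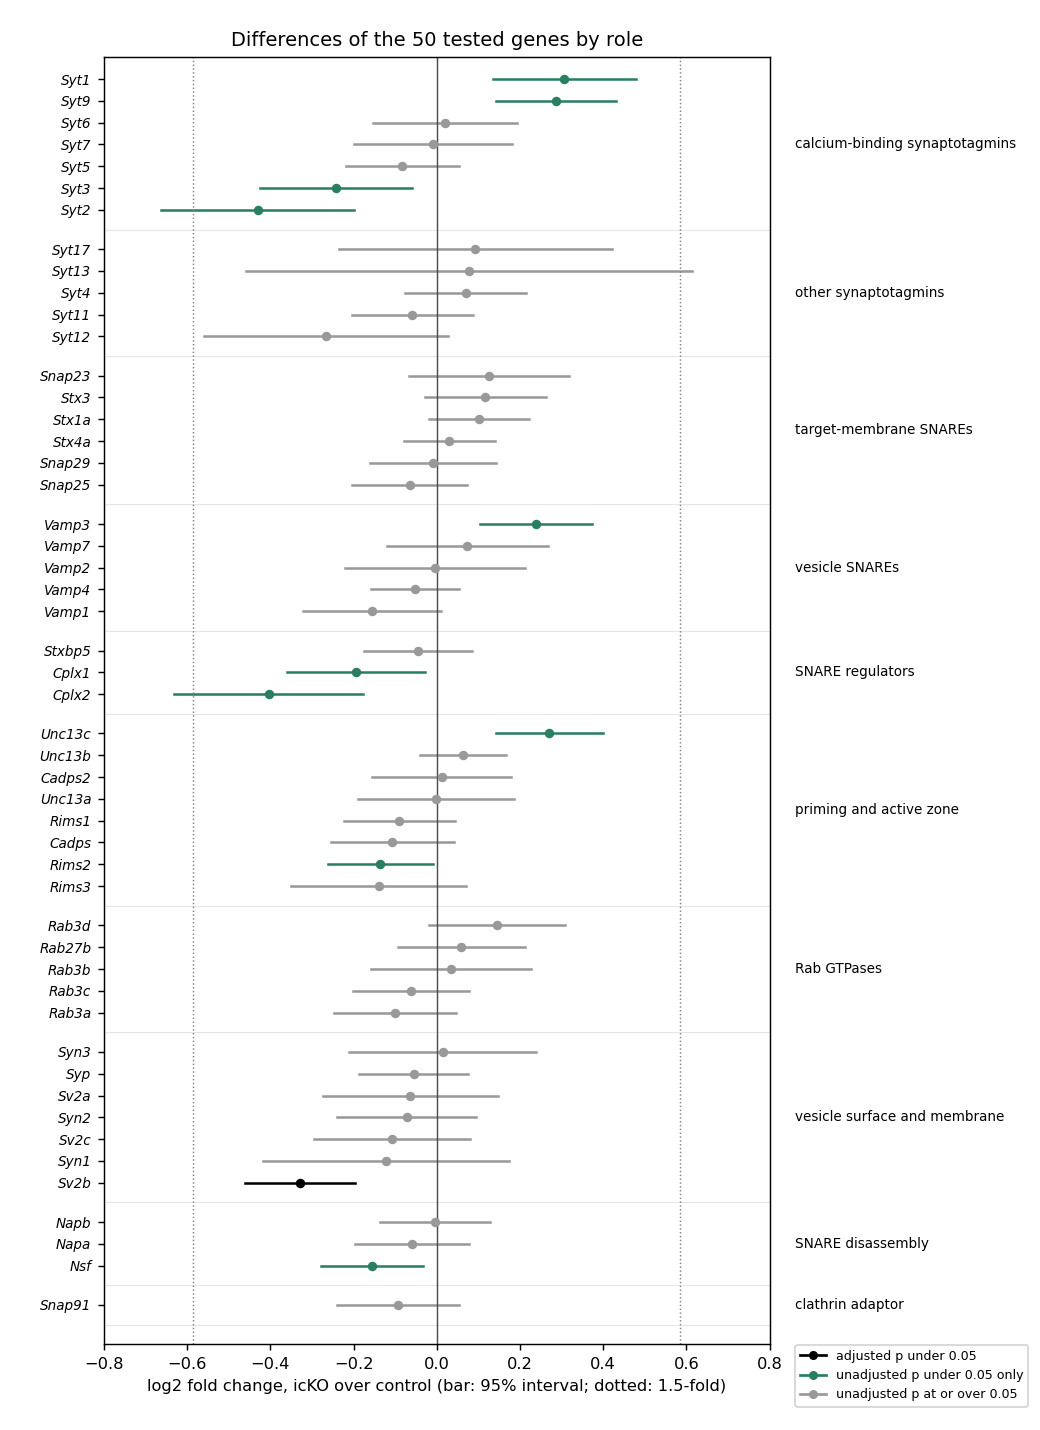
Log2 fold change of icKO over control for the 50 tested genes with its 95% interval, grouped by role, with dotted lines at a 1.5-fold change. Sv2b is the gene with an adjusted p under 0.05, and 47 of the 50 intervals lie between the dotted lines.

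The promoter windows of Sv2b, Unc13c, Syt9, Syt2 and Syt1 are shown because these were the 5 genes with the smallest p-values, with lower levels of Sv2b and Syt2 and higher levels of the other 3 in icKO. Each is the window of 250 bases upstream of the most upstream RefSeq start on GRCm38.p6, written 5′ to 3′ along the gene. Capitals mark the matches named after the sequences.
Sv2b (chr7:75309263-75309512, minus strand): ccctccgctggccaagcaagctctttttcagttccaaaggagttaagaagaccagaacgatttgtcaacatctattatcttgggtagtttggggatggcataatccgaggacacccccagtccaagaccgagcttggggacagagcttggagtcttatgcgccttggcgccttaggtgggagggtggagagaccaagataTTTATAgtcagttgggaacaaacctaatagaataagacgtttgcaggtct
Syt2 (chr1:134646362-134646611, plus strand): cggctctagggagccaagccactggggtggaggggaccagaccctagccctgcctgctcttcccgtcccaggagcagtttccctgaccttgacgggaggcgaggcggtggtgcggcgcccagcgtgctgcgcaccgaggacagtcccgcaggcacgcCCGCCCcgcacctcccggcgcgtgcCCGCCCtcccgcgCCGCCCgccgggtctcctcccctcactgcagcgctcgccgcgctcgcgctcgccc
Syt1 (chr10:109010976-109011225, minus strand): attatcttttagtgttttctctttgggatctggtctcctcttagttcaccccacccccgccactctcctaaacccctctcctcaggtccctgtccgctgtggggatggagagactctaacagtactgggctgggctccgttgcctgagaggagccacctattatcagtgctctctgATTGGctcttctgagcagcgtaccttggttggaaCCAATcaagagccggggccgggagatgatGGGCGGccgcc
Syt9 (chr7:107370540-107370789, plus strand): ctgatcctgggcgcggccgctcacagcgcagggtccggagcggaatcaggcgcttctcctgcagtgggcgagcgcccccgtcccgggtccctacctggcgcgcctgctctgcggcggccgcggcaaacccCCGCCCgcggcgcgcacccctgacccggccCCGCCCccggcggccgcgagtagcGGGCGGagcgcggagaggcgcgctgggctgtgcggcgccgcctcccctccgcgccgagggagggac
Unc13c (chr9:73969038-73969287, minus strand): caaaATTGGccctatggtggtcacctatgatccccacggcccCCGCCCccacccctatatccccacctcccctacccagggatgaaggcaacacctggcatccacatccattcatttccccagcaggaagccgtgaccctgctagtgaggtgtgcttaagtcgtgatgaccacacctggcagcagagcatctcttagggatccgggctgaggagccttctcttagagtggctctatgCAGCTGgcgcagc
The Sv2b window held 1 match, TATAAA on the opposite strand with its last base 45 bases before the start, and had a GC content of 48.8%. The Syt2 and Syt9 windows, at 76.0% and 80.4% GC, each held 3 GC boxes. That of Syt1, at 56.4% GC, held 1 GC box and 2 CCAAT boxes, and that of Unc13c, at 58.8% GC, held 1 GC box, 1 CCAAT box and 1 E-box. GC boxes were in the window of a gene with a lower estimate and in those of genes with higher ones. They were also in 54.9% of windows of tested protein-coding genes, and a link to the direction of change was not tested.

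The promoters of the members were compared with those of other genes by the letters they hold. RefSeq start sites on GRCm38.p6 gave 48 windows of 250 bases upstream for 38 of the 51 genes, among 32851 windows in all. Their median GC content was 61.2%, beside 59.2% for windows of the tested protein-coding genes. Searched on both strands, the GC box GGGCGG was in 30 of the 48 windows (62.5%), against 32.7% of all windows and 54.9% of those of tested protein-coding genes. The E-box CAGCTG was in 14 (29.2%), against 13% and 12.7% of the same sets. CCAAT was in 27.1% of member windows, against 33.8% and 34.7%, and TATAAA in 8.33%, against 12.4% and 6.94%. The cyclic AMP response element TGACGTCA and TTCAGCACC, the left part of the RE1 element that the neuronal repressor REST binds, were each in 1 member window (2.08%), both times that of Syn1. TGACGTCA was in 1.55% of all windows and 2.43% of those of tested protein-coding genes, and TTCAGCACC in 0.301% and 0.311%. The palindromic NRF1 motif and the AP-1 motif TGACTCA were also in 1 member window each, of Stxbp5 and Syt2. The NRF1 motif was in 0.782% of all windows and 1.46% of those of tested protein-coding genes, and TGACTCA in 4.46% and 3.20%. A window with more G and C holds more GC boxes by its letters alone, and a match is not a bound site.

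Among proteins of the vesicle surface and membrane, 1 of 7 genes fell, 0 rose and 6 did not pass. The one was Sv2b, which encodes a synaptic vesicle glycoprotein of the SV2 family, transporter-like proteins of synaptic and dense-core vesicles. Sv2b was measured at 267, 282, 268, 240.1 and 268 CPM in icKO replicates 1 to 5, against 337, 319, 358 and 318 CPM in control replicates 1 to 4. Every icKO library lay below every control library, and the means were 265 ± 15.3 CPM in icKO (SD, n = 5) and 333 ± 18.8 CPM in control (SD, n = 4). The log2 fold change was -0.33 (SE 0.06, 95% interval -0.46 to -0.20) and the adjusted p of edgeR's test was 0.0252, so that icKO ganglia held 79.6% of the control level. The call was close to the threshold: it was lost without icKO 1, 3, 4 or 5 or control 1 or 3, with adjusted p up to 0.100, while the log2 fold change stayed between -0.35 and -0.28 whichever library was left out. Split by Y-linked level, the log2 fold change was -0.33 among the 4 high libraries and -0.30 among the 5 low ones, and neither fit called it. Sv2b (ENSMUSG00000053025, chromosome 7 from 75114894 to 75309262 on mm10) shares 47 exonic bases with the opposite-strand transcript 1500012K07Rik, which averaged 1.94 CPM, while the strand setting of the counting is not known from the sources used here. Its promoter window printed with the others, 1 of 4 windows of this gene, held the letters TATAAA on the opposite strand and no GC box.

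Its paralogs did not pass. Sv2c, the most abundant of this role per kb, was at 812, 886, 921, 814 and 929 CPM in icKO replicates 1 to 5, against 1004, 764, 937 and 1052 CPM in control replicates 1 to 4. The groups overlapped, with a log2 fold change of -0.11, an SE of 0.09 and an adjusted p of 0.732. The log2 fold change was -0.19 without control 2, its lowest library, and -0.047 without control 4, its highest. Sv2a, the family member known as the target of the antiepileptic drug levetiracetam, gave a log2 fold change of -0.063 with adjusted p = 0.880 (SE 0.10). As a share of the summed CPM per kb of the 3 Sv2 genes, Sv2b made up 22.3 to 24.5% in icKO and 23.0 to 29.5% in control, so the shares overlapped. The synapsins tether vesicles to one another and to actin. Syn1 had a log2 fold change of -0.12 with adjusted p = 0.819 (SE 0.14). Its highest library was control 4 with 378 CPM, while control replicates 1 to 3 lay between 233 and 281 CPM. Syn2 had a log2 fold change of -0.072 with adjusted p = 0.810 (SE 0.08) and Syn3, which shares exonic bases with the more abundant Timp3 on the other strand, had a log2 fold change of 0.014 with adjusted p = 0.984 (SE 0.10). Synaptophysin, Syp, a major membrane protein of synaptic vesicles, was even across control libraries at 343 to 360.1 CPM and ranged from 299 to 365 CPM in icKO, with a log2 fold change of -0.056, an SE of 0.06 and an adjusted p of 0.813.

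Of the 7 synaptotagmins that bind calcium, 0 passed with edgeR's test, while 2 were higher and 2 lower before adjustment (p under 0.05). Syt1, Syt2 and Syt9 are the 3 that trigger fast, synchronous release in mammals, and their estimates pointed in different directions. Syt1 was measured at 444, 411, 421, 424 and 459.6 CPM in icKO replicates 1 to 5, against 347, 299, 342 and 409 CPM in control replicates 1 to 4. The icKO libraries all lay above the control ones, the closest pair being icKO 2 and control 4, and the comparison gave a log2 fold change of 0.31, an SE of 0.08 and an adjusted p of 0.112. Without control 4, the log2 fold change was 0.39 and passed (adjusted p = 0.0214), as it did with no count filter (0.0262) and by DESeq2 (0.0108). Syt9 was at 201, 208, 206, 198 and 212 CPM in icKO replicates 1 to 5, against 185, 149, 161 and 178 CPM in control replicates 1 to 4. Here too the groups did not overlap, the icKO libraries lay within 198 to 212 CPM, and the result was a log2 fold change of 0.29, an SE of 0.07 and an adjusted p of 0.0724, which passed without control 1 (adjusted p = 0.0490), with library size alone (0.0362), with no count filter (0.0223) and by DESeq2 (0.00321). Syt2 is the isoform of fast hindbrain, spinal and neuromuscular synapses and had the highest mean of this role per kb in control. It was at 248, 315, 304, 216 and 279.7 CPM in icKO replicates 1 to 5, against 404, 314, 386 and 366 CPM in control replicates 1 to 4. Only icKO 2 and control 2 met, at about the same level, and Syt2 gave a log2 fold change of -0.43, an SE of 0.11 and an adjusted p of 0.0957.

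Set against each other per kb, Syt1, Syt2 and Syt9 stood at 51.8, 35.7 and 51.5 CPM per kb in icKO and 41.9, 48.1 and 42.3 CPM per kb in control. By these group means, Syt2 was the highest of the 3 in control and the lowest in icKO, although in control 4 Syt1 lay above Syt2. The share of Syt2 in the sum of Syt1, Syt2 and Syt9 was 23.8, 28.8, 28.0, 21.9 and 25.3 percent in icKO replicates 1 to 5, against 37.5, 36.0, 38.2 and 33.8 percent in control replicates 1 to 4. All icKO shares lay below all control shares. The share of Syt9 was 36.4 to 38.7% in icKO and 30.7 to 33.0% in control, also without overlap, and that of Syt1 was 34.5 to 39.4% in icKO and 29.5 to 34.6% in control. These shares were formed after the values were seen and were not tested. Syt3 was at 32.0, 36.1, 36.5, 28.0 and 37.4 CPM in icKO replicates 1 to 5, against 38.7, 40.5, 43.7 and 37.7 CPM in control replicates 1 to 4. Its groups were separated by less than 1 CPM, with icKO 4 lowest, and it gave a log2 fold change of -0.24, an SE of 0.08 and an adjusted p of 0.272. The others had log2 fold changes near 0: -0.0086 for Syt7, a slow high-affinity sensor, -0.083 for Syt5 and 0.019 for Syt6, with adjusted p from 0.710 to 0.988.

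**Figure D3:**
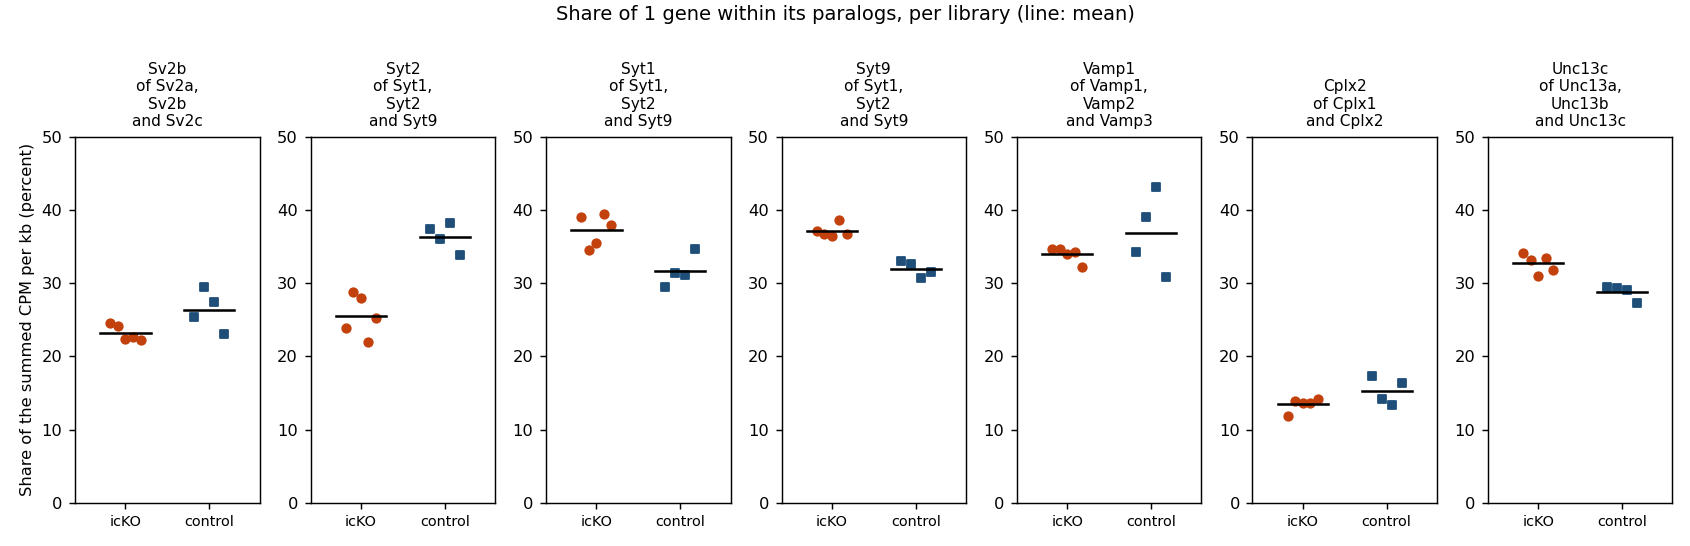
Share of 1 gene in the summed CPM per kb of its paralogs, in percent, with 1 point per library and a line at the mean, icKO left of control. The Syt2 share lay at 21.9 to 28.8% in icKO and 33.8 to 38.2% in control, and the Unc13c share at 31.0 to 34.2% in icKO and 27.3 to 29.5% in control. The Cplx2 share overlapped, at 11.8 to 14.2% in icKO and 13.3 to 17.3% in control. So did the Vamp1 share, at 32.3 to 34.7% in icKO and 30.9 to 43.2% in control. These shares were formed after the values were seen and none was tested.

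The 5 other synaptotagmins, which are not classical calcium sensors, gave 0 calls and 0 genes with an unadjusted p under 0.05. Syt11, known as a brake on endocytosis, was at 1468, 1586, 1497, 1345 and 1544 CPM in icKO replicates 1 to 5, against 1731, 1424, 1532 and 1510.2 CPM in control replicates 1 to 4. The groups overlapped across their whole range apart from control 1, the highest library, and icKO 4, the lowest (a log2 fold change of -0.059, an SE of 0.07 and an adjusted p of 0.824). Syt4, found on dense-core vesicles, was second in this role at 102 CPM per kb in icKO and 97.0 CPM per kb in control, with a log2 fold change of 0.069, an SE of 0.07 and an adjusted p of 0.787. Syt12, Syt13 and Syt17 averaged 2.07 to 8.95 CPM in icKO and 1.99 to 10.8 CPM in control, lowest for Syt13 and highest for Syt12. Their log2 fold changes were -0.27 (SE 0.14) for Syt12, 0.078 (SE 0.25) for Syt13 and 0.093 (SE 0.15) for Syt17.

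The SNAREs of the target membrane gave 0 calls among 6 genes, and 0 with an unadjusted p under 0.05. Snap25, the neuronal SNARE with 2 of the 4 helices of the complex, was at 1807, 1715, 1700.1, 1595 and 1596 CPM in icKO replicates 1 to 5, against 1688, 1824, 1922 and 1605 CPM in control replicates 1 to 4. Its groups overlapped, with a log2 fold change of -0.065, an SE of 0.06 and an adjusted p of 0.791 and a 95% interval of -0.20 to 0.073. Stx1a, its syntaxin partner, was at 63.3 to 73.0 CPM in icKO and 61.1 to 66.6 CPM in control (a log2 fold change of 0.10, an SE of 0.06 and an adjusted p of 0.550). The more widely expressed relatives Snap23, Snap29, Stx3 and Stx4a had log2 fold changes of 0.13, -0.0096, 0.12 and 0.030, with adjusted p from 0.585 to 0.983. Snap29 and Stx4a each share exonic bases with a gene of the opposite strand that is more abundant.

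Among the 5 vesicle SNAREs, 0 passed and 1, Vamp3, was higher at an unadjusted p under 0.05. Vamp3, or cellubrevin, is the form found in most cell types, glia included, and was the least abundant of the 5. It was at 32.5, 29.8, 29.8, 34.0 and 32.0 CPM in icKO replicates 1 to 5, against 25.7, 27.4, 25.8 and 28.5 CPM in control replicates 1 to 4. The groups did not overlap, and the result was a log2 fold change of 0.24, an SE of 0.06 and an adjusted p of 0.113. Vamp2, the main synaptobrevin of brain synapses and the most abundant here per kb, was at 357, 388, 407, 336 and 436 CPM in icKO replicates 1 to 5, against 429, 341, 334 and 440.0 CPM in control replicates 1 to 4. All icKO values lay inside the control range, the result was a log2 fold change of -0.0042, an SE of 0.10 and an adjusted p of 0.995, and the sign changed with the scaling or with the library left out, between -0.058 and 0.066 over the latter. Vamp1, the synaptobrevin that dominates at motor and many spinal synapses, gave a log2 fold change of -0.16, an SE of 0.08 and an adjusted p of 0.494, with control 3 highest at 748 CPM. Vamp4, of endosomes and the trans-Golgi network, and Vamp7, a SNARE that tetanus toxin does not cut, gave log2 fold changes of -0.053 (adjusted p = 0.775) and 0.073 (adjusted p = 0.839).

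The regulators of SNARE assembly had 3 tested genes, all with estimates below 0, of which 0 passed and 2 had an unadjusted p under 0.05. Complexins both clamp and promote fusion. Cplx2 was at 217, 278, 279, 216 and 290.4 CPM in icKO replicates 1 to 5, against 374, 301, 312 and 369 CPM in control replicates 1 to 4. The 2 lowest icKO libraries, 1 and 4, were about the same, every icKO library lay below the lowest control library, and the comparison gave a log2 fold change of -0.40, an SE of 0.10 and an adjusted p of 0.112 with a 95% interval of -0.63 to -0.18. Cplx1 was at 718, 761, 785, 607 and 777 CPM in icKO replicates 1 to 5, against 793, 805, 903 and 838 CPM in control replicates 1 to 4. The groups were separated by a narrow gap, icKO 4 was far below the other icKO libraries, and the result was a log2 fold change of -0.19, an SE of 0.08 and an adjusted p of 0.355. Without icKO 4 the log2 fold change of Cplx1 was -0.13 and that of Cplx2 -0.35. Stxbp5, or tomosyn, which occupies syntaxin and SNAP-25 in place of synaptobrevin, gave a log2 fold change of -0.045 with adjusted p = 0.857 (SE 0.06).

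Priming and active zone genes numbered 8, of which 0 passed, with 1 higher (Unc13c) and 1 lower (Rims2) at an unadjusted p under 0.05. Unc13c encodes Munc13-3, a priming factor best known from the cerebellum. It was at 79.8, 78.5, 79.8, 77.6 and 80.4 CPM in icKO replicates 1 to 5, against 71.7, 58.4, 64.4 and 68.2 CPM in control replicates 1 to 4. The icKO libraries were within 3 CPM of one another and all above control, and the gene came closest to the threshold after Sv2b (a log2 fold change of 0.27, an SE of 0.06 and an adjusted p of 0.0579). Unc13c passed without control 1 (adjusted p = 0.0313), with a robust dispersion (0.0478), with library size alone (0.0276), with no count filter (0.0211) and by DESeq2 (0.00335), and did not in the other 15 alternatives, where its adjusted p was 0.0519 to 0.537. Unc13a and Unc13b, for Munc13-1 and Munc13-2, gave log2 fold changes of -0.0014 (95% interval -0.19 to 0.19) and 0.062 (95% interval -0.041 to 0.17), and the share of Unc13c in the 3 genes per kb was above every control share in all icKO libraries, as the plot of paralog shares shows. Rims2, which encodes a RIM scaffold that binds calcium channels, was at 63.4, 68.9, 68.8, 59.0 and 62.6 CPM in icKO replicates 1 to 5, against 72.5, 66.4, 73.7 and 71.1 CPM in control replicates 1 to 4. Its groups overlapped (a log2 fold change of -0.14, an SE of 0.06 and an adjusted p of 0.405). Rims1 and Rims3 gave a log2 fold change of -0.090 with adjusted p = 0.670 (SE 0.06) and a log2 fold change of -0.14 with adjusted p = 0.675 (SE 0.10). Cadps, for CAPS1, a priming factor of dense-core vesicles and the most abundant of this role per kb, was at 619, 679, 641, 599 and 649 CPM in icKO replicates 1 to 5, against 757, 600.1, 693 and 695 CPM in control replicates 1 to 4. The ranges overlapped (a log2 fold change of -0.11, an SE of 0.07 and an adjusted p of 0.633), and so did those of Cadps2, at a log2 fold change of 0.012 with adjusted p = 0.981 (SE 0.08).

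Vesicle-bound Rab GTPases gave 0 calls among 5 genes and 0 genes with an unadjusted p under 0.05. Rab3a, the main Rab of synaptic vesicles, was at 307, 332, 328, 264 and 326 CPM in icKO replicates 1 to 5, against 338, 334, 332 and 332 CPM in control replicates 1 to 4. The 4 control libraries were within 332 to 338 CPM, with a coefficient of variation of 0.820%, while icKO 4 was lower than the rest, and the test gave a log2 fold change of -0.10, an SE of 0.07 and an adjusted p of 0.664. Without icKO 4 the log2 fold change was -0.046. Rab3d, known from secretory granules, had a log2 fold change of 0.14 with adjusted p = 0.531 (SE 0.08), Rab3c at a log2 fold change of -0.062 with adjusted p = 0.804 (SE 0.06), Rab3b at a log2 fold change of 0.034 with adjusted p = 0.939 (SE 0.09) and Rab27b, which acts in dense-core vesicle release, at a log2 fold change of 0.059 with adjusted p = 0.834 (SE 0.07).

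SNARE complexes are taken apart by the ATPase NSF. Of its 3 genes 0 passed, and Nsf was lower at an unadjusted p under 0.05. Nsf was at 630.0, 642, 627, 589.9 and 611 CPM in icKO replicates 1 to 5, against 749.6, 681, 693 and 638 CPM in control replicates 1 to 4. The groups met at one point, where control 4 lay just below icKO 2, and the comparison gave a log2 fold change of -0.16, an SE of 0.06 and an adjusted p of 0.303. Its adaptor alpha-SNAP, Napa, the most abundant of the 3 per kb, was at 431, 422, 404, 417 and 413 CPM in icKO replicates 1 to 5, against 448, 474, 435 and 382 CPM in control replicates 1 to 4. The groups overlapped (a log2 fold change of -0.059, an SE of 0.06 and an adjusted p of 0.811). Napb, the neuronal beta-SNAP, gave a log2 fold change of -0.0052 with adjusted p = 0.991 (SE 0.06). Snap91, which despite its symbol encodes the clathrin assembly protein AP180 of vesicle retrieval, was at 315, 346, 347, 293 and 339 CPM in icKO replicates 1 to 5, against 372, 319, 363 and 347 CPM in control replicates 1 to 4. The ranges overlapped (a log2 fold change of -0.094, an SE of 0.07 and an adjusted p of 0.689).

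**Figure D4:**
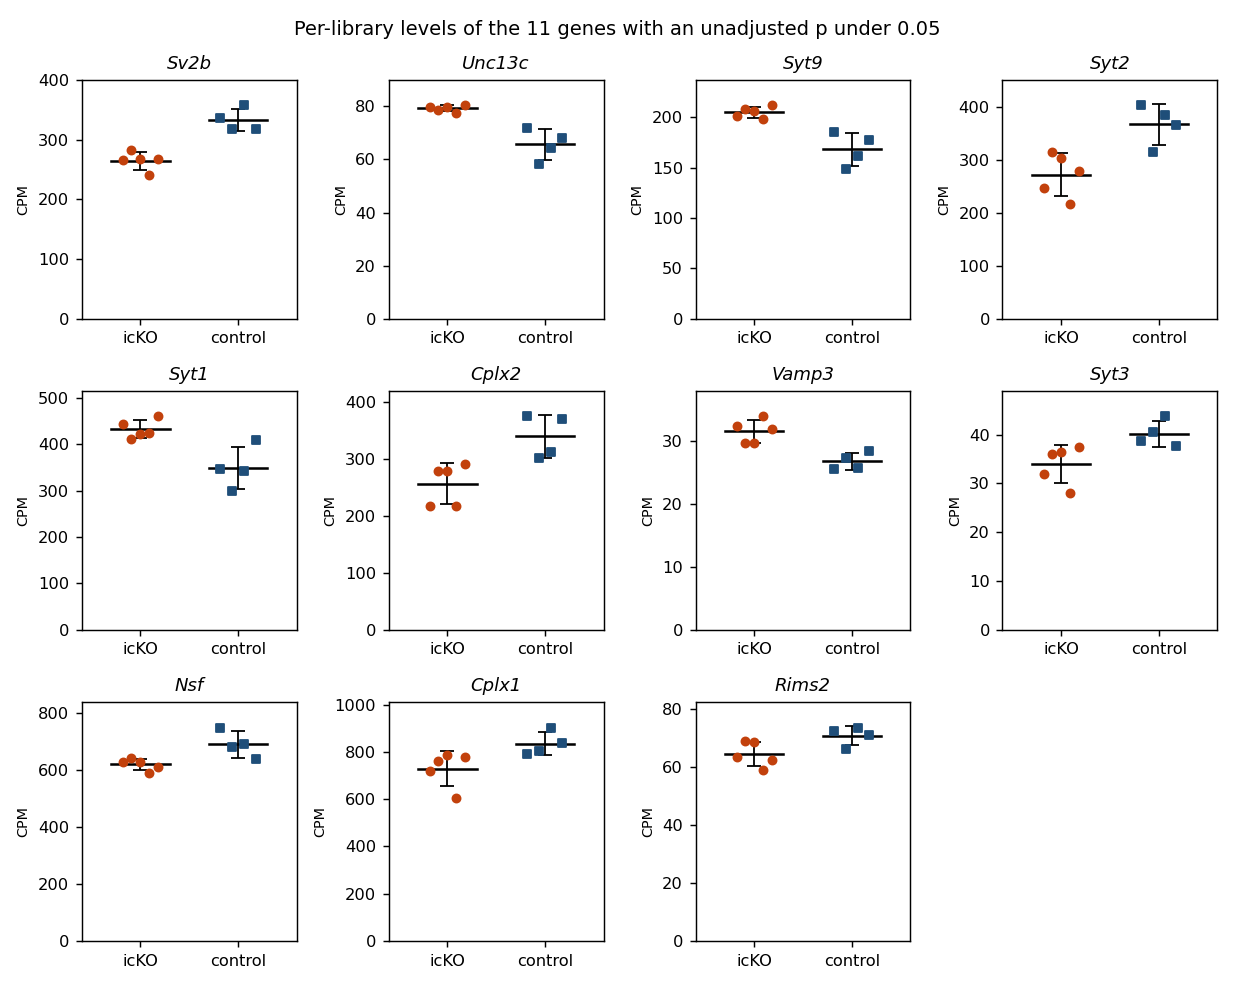
CPM per library of the 11 genes with an unadjusted p under 0.05, in order of p, icKO left of control, with the mean (line) and SD (bar) of 5 and 4 libraries. The groups do not overlap for Sv2b, Unc13c, Syt9, Syt1, Cplx2, Vamp3, Syt3 and Cplx1, and Sv2b alone passed at an adjusted p under 0.05.

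Single markers of several sensory neuron classes differed between the groups, while no summed list passed after adjustment. The part of these markers in the results above was not tested. The 8 markers of A-fibre mechanoreceptors and proprioceptors, large myelinated neurons, summed to 6089, 7101, 6597, 5404 and 6405 CPM in icKO replicates 1 to 5, against 7703, 7196, 8027 and 6776 CPM in control replicates 1 to 4. Only icKO 2 reached into the control range, 6 of the 8 had estimates below 0, and 4 were lower at an unadjusted p under 0.05, while Ntrk3 was called higher. The two-sided exact permutation test of the summed level gave p = 0.0317, or 0.169 adjusted over 16 marker lists. icKO 4, where 28 of the 50 genes were lowest among icKO libraries, was also the lowest library in this sum. Other lists set icKO 4 apart too. Among icKO libraries, its pan-neuronal and Schwann cell sums were the lowest, at 11117 and 2984 CPM. Its fibroblast and meninges sum was the highest, at 1769 CPM against 753 to 1301 CPM in the other icKO libraries. Its macrophage sum was also the highest, at 208 CPM against 131 to 159 CPM. The reason was not tested. The 3 markers of C-fibre low-threshold mechanoreceptors (C-LTMR) summed to 261 to 285 CPM in icKO and 200.2 to 259 CPM in control, and the 6 of itch neurons to 195 to 249 CPM in icKO and 113 to 176 CPM in control, with no overlap in either. Both lists had an exact permutation p of 0.0159, the smallest that 5 against 4 libraries allow, and 0.127 adjusted over the 16 lists, where a single list at this smallest p could not pass. By edgeR's test over all genes, 2 of the 6 itch markers were called higher, the receptors Cysltr2 (32.4 CPM in icKO and 15.0 CPM in control, adjusted p = 0.000592) and Npy2r (53.3 CPM in icKO and 39.9 CPM in control, adjusted p = 0.0178), and 5 of 6 were higher before adjustment. Of the 3 C-LTMR markers, Fam19a4 was called higher (68.5 CPM in icKO and 53.3 CPM in control, adjusted p = 0.0125). Among peptidergic nociceptor markers, Calcb was called higher (235 CPM in icKO and 164 CPM in control, adjusted p = 0.00253) and Gfra3 lower (43.3 CPM in icKO and 68.5 CPM in control, adjusted p = 0.0252), so that changes in both directions met in the sum of that list. The 12 pan-neuronal genes summed to 11117 to 12985 CPM in icKO and 10891 to 12962 CPM in control, with overlap and an exact permutation p of 0.778. The other 12 lists, of nociceptors, glia, macrophages and other cells, had an exact permutation p for the summed level from 0.111 to 1. With these neuronal counts as the library size, the log2 fold change of Sv2b was -0.31 and its adjusted p 0.101, so the call was lost. The 51 members together summed to 13958, 14522, 14357, 13163 and 14409 CPM in icKO replicates 1 to 5, against 15395, 13905, 14989 and 14999 CPM in control replicates 1 to 4.

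**Figure D5:**
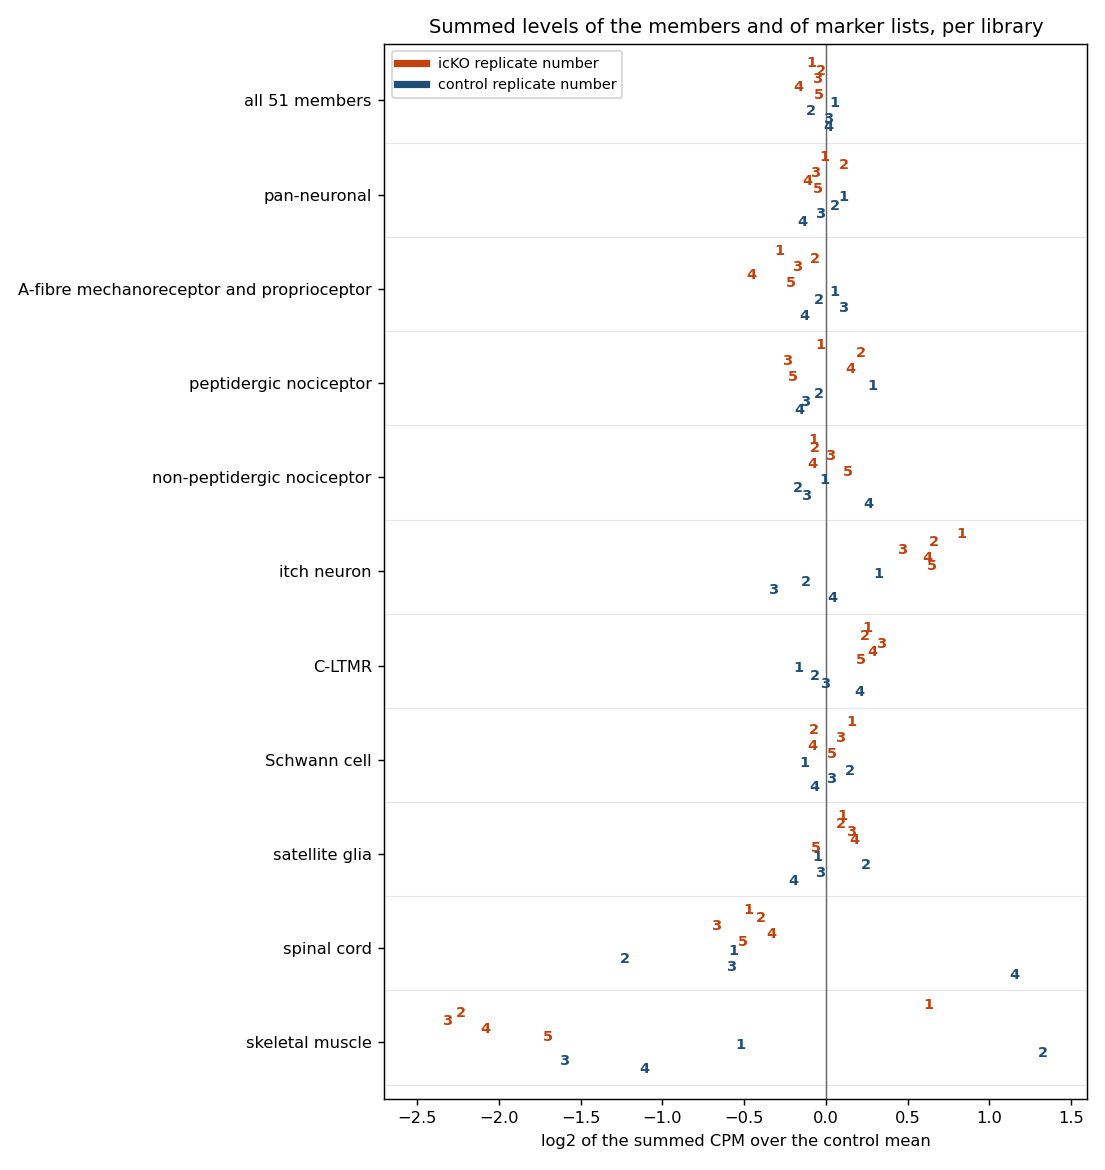
Summed CPM of the 51 members and of 10 marker lists in each library, as log2 of the ratio to the control mean, each digit being a replicate number (icKO above control in each row). The members lie close to 0 in all libraries, A-fibre markers lie lowest in icKO 4, and spinal cord markers lie highest in control 4.

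Neighbouring parts of the release pathway were taken as 8 further lists of 100 genes in all, of which some were not tested. Where 0.475% of all 17258 genes tested were called higher and 0.377% lower, these lists gave 1 higher and 0 lower genes by edgeR's test. The one was Pam, which encodes the enzyme that amidates neuropeptides in dense-core vesicles, at 269, 259, 253, 267 and 256 CPM in icKO replicates 1 to 5, against 212, 172, 206 and 205 CPM in control replicates 1 to 4 (a log2 fold change of 0.39, an SE of 0.07 and an adjusted p of 0.0138). It was among 12 dense-core vesicle genes, of which 3 were higher and 3 lower before adjustment (p under 0.05), and their median log2 fold change was -0.11. Over all genes tested, 4.85% were higher and 6.26% lower before adjustment. Of 9 further vesicle membrane genes 0 passed, the closest being Synpr, for synaptoporin, a relative of synaptophysin, at 589.8 ± 47.1 CPM in icKO (SD, n = 5) and 456 ± 57.0 CPM in control (SD, n = 4) (a log2 fold change of 0.37, an SE of 0.09 and an adjusted p of 0.0715), and the next Syngr1, at a log2 fold change of -0.17 with adjusted p = 0.591 (SE 0.10). Of 9 transmitter loading genes, 7 were tested and 0 passed. Slc17a7, the vesicular glutamate transporter VGLUT1 of large mechanosensory neurons, had a log2 fold change of -0.38 with adjusted p = 0.230 (SE 0.12) and Slc17a8, VGLUT3, had a log2 fold change of 0.27 with adjusted p = 0.459 (SE 0.13).

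The lists of priming, retrieval, SNARE and Rab genes held no call. Of 15 other active zone and priming genes, 14 were tested and 0 passed, with the Rab3 effector rabphilin, Rph3a, at a log2 fold change of -0.27 with adjusted p = 0.263 (SE 0.09) and Ppfia2, a liprin scaffold, at a log2 fold change of 0.13 with adjusted p = 0.406 (SE 0.06). All 18 vesicle endocytosis genes were tested and 0 passed, although 16 had estimates below 0, and the median was -0.061 beside -0.00076 over all genes. The closest were Sh3gl2, for endophilin A1, at a log2 fold change of -0.14 with adjusted p = 0.337 (SE 0.06) and Bin1, for amphiphysin 2, at a log2 fold change of -0.093 with adjusted p = 0.60 (SE 0.06). Other SNAREs and their regulators had 16 of 17 genes tested and 0 passed, led by Stx2 at a log2 fold change of 0.14 with adjusted p = 0.263 (SE 0.05) and Stxbp5l at a log2 fold change of -0.21 with adjusted p = 0.517 (SE 0.11). Other synaptotagmin-like genes had 10 of 12 tested and 0 passed, led by Sytl3 at a log2 fold change of -0.30 with adjusted p = 0.162 (SE 0.09) and Syt16 at a log2 fold change of 0.32 with adjusted p = 0.303 (SE 0.12). The 8 genes of the Rab cycle had 0 passing, led by Rab3gap2 at a log2 fold change of 0.10 with adjusted p = 0.573 (SE 0.06) and Rab3gap1 at a log2 fold change of -0.081 with adjusted p = 0.673 (SE 0.06).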

How the data were processed

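Lumbar dorsal root ganglia were profiled by mRNA sequencing in 5 icKO and 4 control libraries, grouped by their titles. The authors deposited raw read counts for Ensembl genes, 1 table per library. The submitters' processing notes name featureCounts 1.5.0-p1, STAR 2.5.2a, bcl2fastq 2.20.0.422 and mm10. Annotation release, strand setting and treatment of multi-mapping reads: not given in the sources used here. All 55536 identifiers matched GENCODE release M21, which gave symbols, positions and exon lengths.

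Genes were kept with filterByExpr (minimum count 10, minimum total 15), leaving 17258, and compared with edgeR 4.0.16 (TMM, quasi-likelihood test, R 4.3.3), with Benjamini-Hochberg adjustment over all genes tested and a threshold of 0.05. The SE was taken as the size of the log2 fold change over the root of F. Replicates differed by more than sampling noise. Alternatives were other scalings, filters and dispersions, DESeq2 1.42.0, a replicate block, a term for Y-linked level and leaving out each library. The members and lists were chosen with earlier results of these data known. All 51 members are named, and values per library are given for those with an adjusted or unadjusted p under 0.05 and the most abundant of each role. Exact permutation tests, two-sided, were run on marker sums. A marker gene is not reported here.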

Additional observations from a re-analysis of the deposited data

Results flagged for a closer look

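Each group of libraries was searched for a single library far from the rest, by Dixon's ratio of the gap to the range, over 100 sets of values of the 50 tested genes. Chance marks about 1 in 20 such sets, and 3 were marked. Syt4 in control 1, at 418 CPM, was above control replicates 2 to 4, which had 363 to 365 CPM. Unc13b in control 4, at 55.4 CPM, stood above the others at 52.6 to 53.1 CPM. Cadps2 in icKO 5, at 60.3 CPM, stood above the other icKO libraries at 54.0 to 55.4 CPM.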

How the results depend on the processing

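The count of members called was 0 higher and 1 lower. The higher count was 2 with library size alone (Syt9 and Unc13c), 1 with robust dispersion (Unc13c), 3 with no count filter (Syt1, Syt9 and Unc13c) and 4 with DESeq2 (these and Vamp3), and ranged from 0 to 2 over single libraries left out (2 without control 1, Syt9 and Unc13c, and 1 without control 4, Syt1). The lower count was 0 with pan-neuronal counts as library size, 0 under the replicate block, 3 with no count filter and 3 with DESeq2 (Sv2b, Syt2 and Cplx2 in both), and ranged from 0 to 1 over single libraries left out (0 without icKO 1, 3, 4 or 5 or control 1 or 3). The causes were not tested. The median log2 fold change ranged from -0.060 to 0.0067 over single libraries left out, the highest without control 4. Vamp2 ranged from -0.058 to 0.066 over single libraries left out and changed sign, to 0.011 with library size alone, 0.012 with pan-neuronal counts, 0.0072 with no filter, 0.0090 within low Y-linked libraries (a split added after seeing the data), and 0.022, 0.042, 0.048 and 0.066 without icKO 1, icKO 4, control 1 and control 4. Estimates that passed nowhere also moved with single libraries, as Cadps (-0.17 to -0.058), Syt11 (-0.10 to -0.0035), Snap25 (-0.11 to -0.010), Napa (-0.11 to -0.014) and Snap91 (-0.13 to -0.055) did. The other 18 members described in full kept their direction in all 20 alternative fits, and RLE factors, the filter of 1 CPM in 4 libraries and the Y-linked term left both counts as they were. Replicate numbers were not taken as pairs: same-numbered libraries deviated from their group means with r across genes of 0.103, -0.175, -0.0441 and 0.170 for numbers 1 to 4, and 0 icKO libraries correlated best with their own number. The block left Sv2b at -0.32 (adjusted p = 0.151), without icKO 5, which has no counterpart. At this depth, Cplx3 was at the limit of detection and Syt13 had a wide interval.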
